A study of Mus musculus with 6 samples.

Results

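Skeletal muscle fibre genes were followed in RNA-seq libraries of mouse knee articular cartilage. The set was chosen by name, with earlier results of these data known, and its rule uses no measured value. It holds 10 genes of the sarcomere, of calcium handling and of energy supply in muscle, taken out of 55401 genes in the deposited count table. All 10 were found and all 10 passed the filter on low counts. The study compared 3 cKO libraries, labelled adseverin knockout, with 3 WT libraries, labelled wild type. Both groups were 10-week-old mice that had received tamoxifen from 8 weeks of age, once a day on 5 days at a dose of 1.5 mg per 10 g of weight. No source used here names the Cre driver or the exons removed. Nor do the labels say that each library came from its own mouse, and the p-values therefore measure only the spread among these libraries, which may be technical.

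Skeletal muscle fibres contract when myosin filaments pull on actin filaments, under the control of calcium released from the sarcoplasmic reticulum. Fast fibres use their own versions of myosin, troponin and the calcium pump, encoded by different genes from those of slow fibres. Muscle fibres are not part of articular cartilage, while muscles and their tendons lie close to the knee joint. In bulk tissue, fewer cells of a type and less RNA per cell cannot be told apart.

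Library WT 2 held most of the reads of this set. The 10 genes summed to 227, 294 and 48.6 CPM (read counts scaled to a common library size with TMM factors) in cKO 1, cKO 2 and cKO 3, against 79.3, 1715 and 50.4 CPM in WT 1, WT 2 and WT 3. WT 2 alone accounted for 71.0% of the summed CPM of the 6 libraries. The cKO and WT ranges overlapped, since the WT group held both the highest library and the next to lowest. As a share of all reads the set took 0.0227% in cKO 1 (95% Wilson interval 0.0221% to 0.0233%), 0.0288% in cKO 2 (0.0282% to 0.0294%) and 0.00492% in cKO 3 (0.00465% to 0.00521%). In WT libraries it took 0.00808% in WT 1 (0.00775% to 0.00842%), 0.170% in WT 2 (0.168% to 0.171%) and 0.00502% in WT 3 (0.00476% to 0.00530%). These intervals cover counting error only. The intervals of cKO 3 and WT 3 overlapped, and those of the other libraries were separate.

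The libraries themselves held 22664828 to 31014996 reads. Scin, which encodes adseverin, stood at 39.1, 29.9 and 29.4 CPM in cKO and at 186, 185 and 219 CPM in WT, so WT 2 had the level of its group for the targeted gene. The labelled tissue was checked on 13 cartilage genes. They summed to 59715 to 64736 CPM in cKO and 54185 to 57502 CPM in WT, with WT 2 at 57218 CPM, inside the WT range. Chad, Comp and Col2a1 were the most abundant of them per length.

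The sequences upstream of these genes are shown for 4 members that stand for the main parts of the fibre: the actin, the heavy chain, the regulatory light chain and the energy enzyme. RefSeq's promoter table (GRCm38.p6) held 8 of the 10 members, all but Tnnt3 and Tnni2. Each sequence is the 250 bases before the start in that table, read 5′ to 3′ on the gene's strand. That start can differ from the GENCODE gene coordinates given below. The Mylpf and Ckm windows lie inside those coordinates, and the Acta1 and Myh4 windows lie outside them. Acta1 lies on the minus strand at chr8:123894776-123895025, Myh4 on the plus strand at chr11:67237562-67237811, Mylpf on the plus strand at chr7:127211358-127211607 and Ckm on the plus strand at chr7:19410844-19411093. Capitals mark the E-box CAGCTG, the box TATAAA, the MEF2 motif and the CArG box, searched on both strands.
Acta1: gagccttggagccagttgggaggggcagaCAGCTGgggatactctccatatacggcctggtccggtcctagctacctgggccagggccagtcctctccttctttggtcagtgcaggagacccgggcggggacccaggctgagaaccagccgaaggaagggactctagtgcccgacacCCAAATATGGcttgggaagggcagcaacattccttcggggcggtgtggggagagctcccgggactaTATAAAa
Myh4: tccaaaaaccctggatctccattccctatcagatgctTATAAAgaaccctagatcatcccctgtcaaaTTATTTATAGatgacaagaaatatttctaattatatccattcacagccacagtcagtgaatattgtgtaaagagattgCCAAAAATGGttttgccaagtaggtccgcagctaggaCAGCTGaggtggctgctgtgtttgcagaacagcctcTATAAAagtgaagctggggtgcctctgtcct
Mylpf: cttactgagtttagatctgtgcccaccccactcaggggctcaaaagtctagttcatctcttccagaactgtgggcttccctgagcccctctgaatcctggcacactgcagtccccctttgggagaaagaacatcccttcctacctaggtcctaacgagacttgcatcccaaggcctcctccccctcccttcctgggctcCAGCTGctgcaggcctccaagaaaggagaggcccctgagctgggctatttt
Ckm: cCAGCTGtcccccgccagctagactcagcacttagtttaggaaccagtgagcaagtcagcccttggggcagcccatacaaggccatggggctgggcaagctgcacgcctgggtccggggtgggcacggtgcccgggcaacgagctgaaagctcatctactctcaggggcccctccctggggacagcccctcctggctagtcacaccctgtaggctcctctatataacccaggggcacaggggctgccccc
CAGCTG, the E-box form that myogenic factors are known to bind, was in 7 of the 8 member windows, and in 13.0% of 32851 windows of the same length. TATAAA was in 3 of 8 (Acta1, Myh4 and Myl1), against 12.37% of all windows. The MEF2 motif was in 2 of 8 (Myh4 and Ttn), against 2.92%, and the CArG box, the site of serum response factor, in 2 of 8 (Acta1 and Myh4), against 1.47%. In the Myh4 window 1 TATAAA match lies inside the MEF2 match. These matches describe the letters in the windows and do not show binding.

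**Figure D1:**
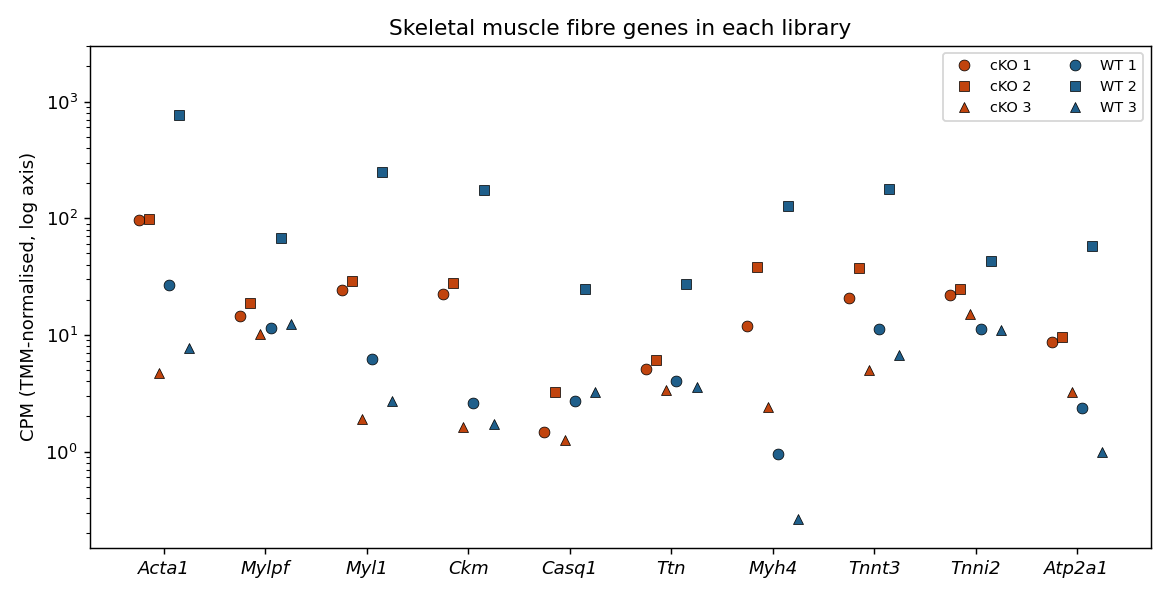
CPM of each of the 10 genes (log axis) in the 3 cKO libraries (red-orange) and the 3 WT libraries (blue), with the marker shape giving the library number and 1 point per library. The WT 2 square is the highest point for every gene, from 25.0 CPM for Casq1 to 762 CPM for Acta1.

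The thin filament was represented by an actin and a pair of troponins. Acta1 (ENSMUSG00000031972.5, chromosome 8, 123891769 to 123894751), the actin of the skeletal muscle thin filament, stood at 96.3, 99.2 and 4.73 CPM in cKO, against 26.6, 762 and 7.68 CPM in WT. WT 2 was 7.68 times the next highest library, and the lowest library, cKO 3, lay below both remaining WT libraries. Its log2 fold change was -1.99 ± 1.51 (cKO minus WT, ± SE), with an adjusted p of 0.887 (edgeR quasi-likelihood test, Benjamini-Hochberg method).

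The fast troponin genes lie close together on chromosome 7, which holds 5 of the 10 members. Tnnt3 (142498836 to 142516009) encodes fast troponin T, the subunit that ties the complex to tropomyosin. It stood at 20.9, 37.5 and 4.98 CPM in cKO, against 11.2, 178 and 6.76 CPM in WT. The cKO libraries all lay within the WT range except cKO 3, the lowest. For Tnnt3 the log2 fold change was -1.62 ± 1.16 (edgeR adjusted p = 0.873). Tnni2 (142441808 to 142444410) encodes fast troponin I, the inhibitory subunit. It stood at 22.004, 24.7 and 15.03 CPM in cKO, against 11.2, 42.8 and 11.1 CPM in WT. For Tnni2 the excess of WT 2 was the smallest of the 10: that library was 1.73 times the next highest. All 3 cKO libraries lay above WT 1 and WT 3, and the share of all genes in that order is not given here. For Tnni2 the log2 fold change was -0.07 ± 0.50 (edgeR adjusted p = 0.992).

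The thick filament was represented by a heavy chain and both kinds of light chain. Myh4 (chromosome 11, 67238029 to 67260446), the heavy chain of the fastest fibres, stood at 11.998, 38.1 and 2.43 CPM in cKO, against 0.961, 128 and 0.266 CPM in WT. WT 2 was the highest library and WT 3 the lowest, so the WT group spanned the cKO group on both sides. The log2 fold change was -1.29 ± 1.66 (edgeR adjusted p = 0.937). Of the 50-base words of a Myh4 transcript, 18.9% also occur in Myh1, Myh2, Myh8 or Myh13, so reads could be split among these heavy chains. Myl1 (chromosome 1, 66924295 to 66945404) encodes the essential light chain of fast myosin. It stood at 24.2, 28.8 and 1.88 CPM in cKO, against 6.16, 251 and 2.70 CPM in WT, and its log2 fold change was -2.24 ± 1.50 (edgeR adjusted p = 0.867). WT 2 was 8.72 times the next highest library, more than for any other member. Of the 50-base words of Myl1, 23.4% also occur in the pseudogene Mylf-ps. Mylpf (chromosome 7, 127208890 to 127214298), the regulatory light chain of fast myosin, stood at 14.4, 18.6 and 10.1 CPM in cKO, against 11.4, 67.9 and 12.4 CPM in WT. Outside WT 2 its libraries lay close together, with the highest 1.84 times the lowest. Its log2 fold change was -1.08 ± 0.65 (edgeR adjusted p = 0.846).

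Ttn (chromosome 2, 76703980 to 76982547) encodes titin, the giant spring that runs from the Z-disc to the middle of the sarcomere. It stood at 5.14, 6.09 and 3.39 CPM in cKO, against 4.02, 27.5 and 3.61 CPM in WT. WT 2 stood alone at 4.51 times the next highest library, and the other 5 libraries spanned 1.80 times. The titin log2 fold change was -1.26 ± 0.74 (edgeR adjusted p = 0.843).

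Calcium handling was represented by a pump and a store. Atp2a1 (chromosome 7, 126445858 to 126463108), the fast-fibre calcium pump of the sarcoplasmic reticulum, stood at 8.68, 9.55 and 3.22 CPM in cKO, against 2.35, 57.9 and 0.988 CPM in WT. WT 2 was 6.07 times the next highest library. The cKO libraries all lay above WT 1 and WT 3, and the share of all genes in that order is not given here. The Atp2a1 log2 fold change was -1.50 ± 1.23 (edgeR adjusted p = 0.897). Of its exon bases 21.9% overlap Rabep2 on the other strand, and no source used here gives the strand setting of the counts, so reads there cannot be told apart. Casq1 (chromosome 1, 172209894 to 172219868) encodes calsequestrin, the calcium-binding protein of the fast-fibre store. It stood at 1.46, 3.26 and 1.26 CPM in cKO, against 2.70, 25.0 and 3.23 CPM in WT. Casq1 differed from the other members in that cKO 1 and cKO 3 were its lowest libraries. Its log2 fold change was -2.35 ± 0.87, with an unadjusted p of 0.0259 and an edgeR adjusted p of 0.702.

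Energy supply was represented by Ckm (chromosome 7, 19404776 to 19422841), the muscle creatine kinase that regenerates ATP from phosphocreatine. It stood at 22.4, 28.1 and 1.63 CPM in cKO, against 2.63, 174 and 1.71 CPM in WT. The level of cKO 3 was close to those of WT 1 and WT 3, while cKO 1 and cKO 2 stood above them and below WT 2. The Ckm log2 fold change was -1.77 ± 1.54 (edgeR adjusted p = 0.901). Of the Ckm exon bases 15.5% overlap a gene on the other strand.

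Per length, the order of the members was not the same in all libraries. In WT 2 Acta1 led at 496 RPKM (CPM per kilobase of exon), followed by Myl1 at 121, Tnnt3 at 112, Mylpf at 63.9 and Ckm at 59.8 RPKM. In cKO 3, which had the lowest sum, Tnni2 at 10.0 and Mylpf at 9.50 RPKM came before Tnnt3 at 3.15 and Acta1 at 3.08 RPKM. Titin was lowest in every library, at 0.235 RPKM in WT 2.

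The proportions among the members differed between libraries accordingly. Myl1 kept the narrowest proportion to Acta1, at 25.1, 29.1 and 39.8 reads per 100 Acta1 reads in cKO, against 23.1, 33.0 and 35.1 in WT. Tnni2 had 22.8, 24.9 and 318 reads per 100 Acta1 reads in cKO, against 42.1, 5.62 and 144 in WT. Mylpf had 14.98, 18.7 and 213 in cKO, against 42.9, 8.90 and 161 in WT. For Tnni2 and Mylpf the proportion was highest in cKO 3 and WT 3, the libraries with the smallest summed level, and lowest in WT 2. Myh4 did not follow that order, with 12.5, 38.4 and 51.3 in cKO, against 3.60, 16.8 and 3.47 in WT.

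**Figure D2:**
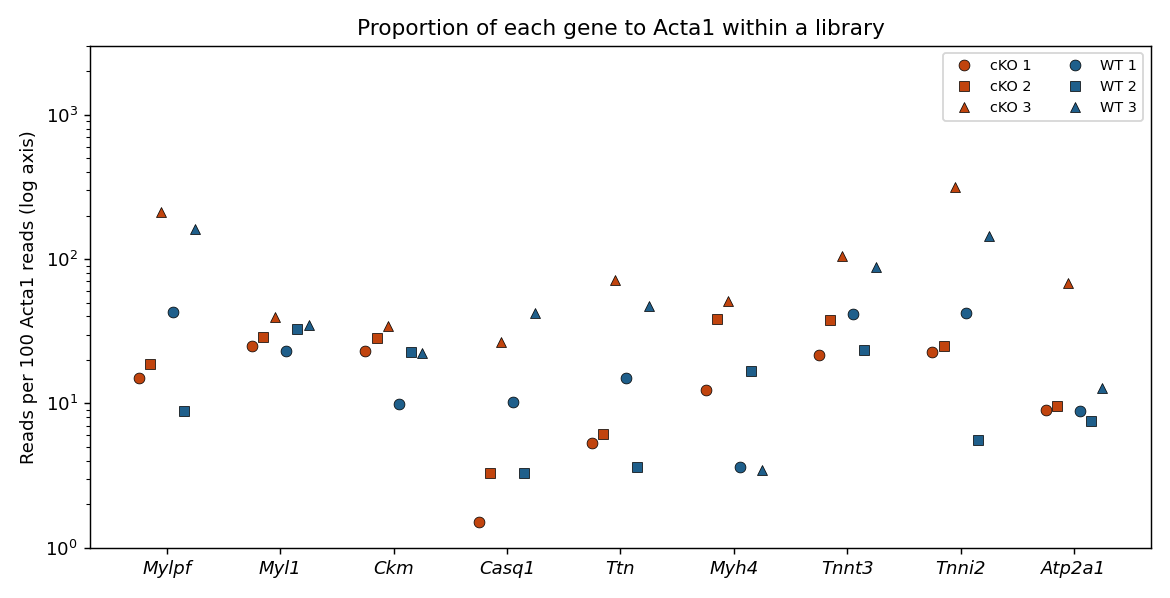
Reads of each gene per 100 Acta1 reads (log axis) in the 3 cKO libraries (red-orange) and the 3 WT libraries (blue), 1 point per library. Myl1 stayed between 23.1 and 39.8, while Tnni2 ran from 5.62 in WT 2 to 318 in cKO 3.

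The order of the libraries was largely shared by the members. WT 2 was the highest library for 10 of 10 members and cKO 2 the next highest for 10 of 10. cKO 1 came next for 9 of 10, all but Casq1. cKO 3 was lowest for 7 members and WT 3 for 3. Over the 6 libraries the 45 pairs of members had Pearson correlations of log2 CPM from 0.573 to 0.995, with a median of 0.917. Over the 5 libraries other than WT 2 the median was 0.835 and the range -0.286 to 0.994. The points share their libraries and the correlations are descriptions.

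In the comparison of cKO with WT cartilage 0 of 10 members passed an adjusted p of 0.05 in edgeR. Of all 16260 genes tested 0.00615% passed. At an unadjusted p under 0.05, 1 member (Casq1) was lower in cKO, against 2.96% of all genes, and 0 members were higher, against 3.54%. All 10 log2 fold changes lay below 0, against 49.4% of all genes, and 9 of 10 lay below -1, against 2.82%. The median over the members was -1.56 and over all tested genes 0.00. With the same 6 libraries, limma-voom gave a median of -0.33, with Ckm, Myh4, Tnni2 and Atp2a1 above 0. With the replicate number as a block in edgeR the median was -0.63, with Myh4, Tnni2 and Atp2a1 above 0. The cKO and WT values overlapped for all 10 members, while 12.3% of all tested genes did not overlap between the groups. DESeq2 called 0 of the 6 members for which it gave an adjusted p, against 0.538% of the 16906 genes for which it gave one. For Acta1, Myl1, Ckm and Atp2a1 it gave neither an unadjusted nor an adjusted p.

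The direction of this difference also depended on WT 2. Summed over the members, the mean was 190 ± 127 CPM in cKO and 615 ± 953 CPM in WT (SD, n = 3 each), so that cKO held 0.309 times the WT level. With WT 2 left out the WT mean was 64.8 CPM, and cKO held 2.93 times that level. In the fit of the 5 remaining libraries 9 of 10 members had a log2 fold change above 0, against 50.1% of all genes, and 6 of 10 lay above 1, against 4.86%. The median became 1.59, and Casq1 was the member that stayed below 0, at -0.57 ± 0.53.

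Without WT 2, the members with the largest differences were Myh4 at 4.81 ± 1.22, Ckm at 2.99 ± 1.02, Atp2a1 at 2.09 ± 0.60, Myl1 at 2.04 ± 0.97 and Acta1 at 1.96 ± 1.08 on the log2 scale. Tnni2 had a smaller difference with a small error, 0.88 ± 0.25. Ckm, Myh4, Tnni2 and Atp2a1 had unadjusted p-values of 0.0208, 0.00501, 0.00810 and 0.00903 in edgeR, so 4 of 10 members were higher at an unadjusted p under 0.05, against 3.32% of all genes. In the same fit 0 members were lower, against 2.54%. The library left out is the one in which all 10 members were highest, so the WT mean and the WT spread of these genes are lower by that choice, and the shares are a description only. None of the 10 passed when adjusted over all genes, the smallest edgeR adjusted p being 0.752; in that fit 0.0058% of all genes passed. The members vary together across libraries, so these are not 4 separate observations. The within-group spread stayed wide: the cKO libraries alone ran from 1.63 to 28.1 CPM for Ckm.

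**Figure D3:**
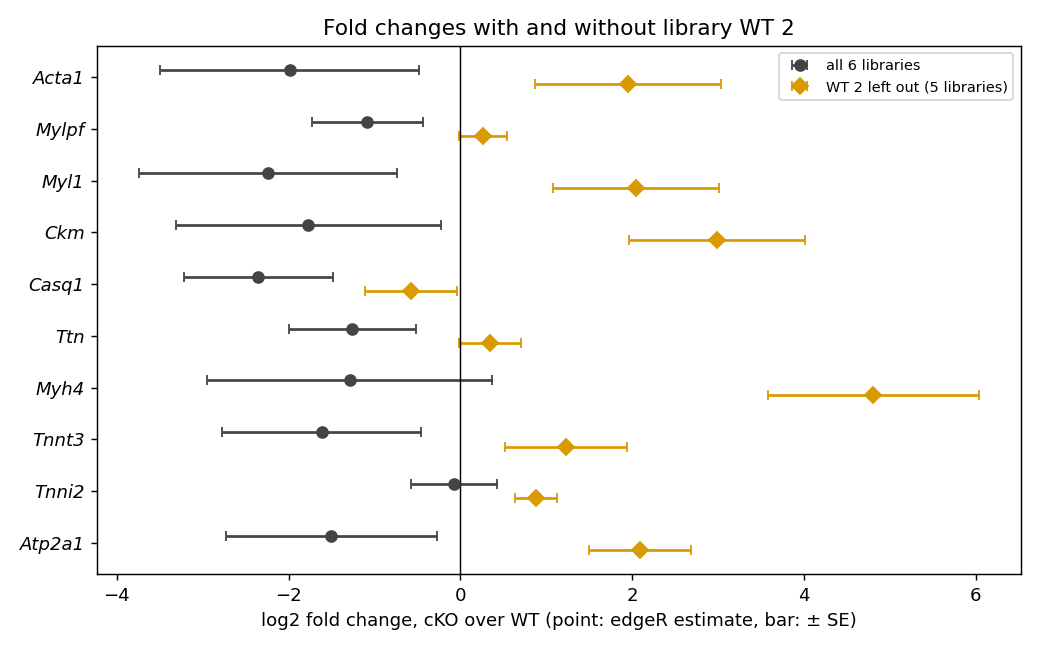
Log2 fold change of each of the 10 genes, cKO over WT, with bars of ± SE, from all 6 libraries (grey circles) and with WT 2 left out (yellow diamonds). All 10 lie below 0 with every library in, and 9 of 10 lie above 0 without WT 2, Casq1 being the exception.

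Other fast-fibre genes were also highest in WT 2. Of 9 genes listed, all had reads and 6 were tested; 6 of 6 had a log2 fold change below 0, 0 passed, and the median was -1.45. Without WT 2, 5 of 6 lay above 0, against 50.1% of all genes, 0 passed, and the median was 1.42. Their sum was 19.3, 25.6 and 2.55 CPM in cKO, against 7.93, 141 and 2.43 CPM in WT, with WT 2 highest for 8 of 9. Actn3, which encodes the fast-fibre α-actinin of the Z-disc, stood at 8.59, 8.66 and 0.335 CPM in cKO, against 2.10, 47.2 and 0.836 CPM in WT. Pvalb, the calcium buffer parvalbumin, stood at 2.79, 6.32 and 0.419 CPM in cKO, against 2.13, 22.5 and 0.684 CPM in WT. Myoz1, a Z-disc protein of fast fibres, stood at 3.23, 4.81 and 0.460 CPM in cKO, against 1.60, 34.7 and 0.228 CPM in WT. Of the other fast heavy chains few reads were counted. Myh1 had 68, 0 and 7 reads in cKO, against 21, 61 and 5 in WT, where Myh4 had 271, 1156 and 58 reads in cKO, against 27, 2924 and 7 in WT. The 0 in cKO 2 allows up to 0.0988 CPM (3 reads), for counting error only. Tnnc2, fast troponin C, had 80 reads in WT 2 and 28 or fewer elsewhere; 74.0% of its exon bases overlap Ube2c on the other strand.

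Slow-fibre genes had sums of like size in all libraries. The 11 listed genes summed to 355, 303 and 286 CPM in cKO, against 333, 315 and 335 CPM in WT, and WT 2 was highest for 2 of 11. Of 8 tested, 3 lay below 0 and 5 above, 0 passed, and the median was 0.04. Most of the sum came from Tpm3 (226, 195 and 195 CPM in cKO, against 204, 181 and 202 CPM in WT) and Atp2a2 (119, 96.1 and 80.1 CPM in cKO, against 120, 123 and 121 CPM in WT), both of which are expressed in many tissues. The defining slow heavy chain Myh7 had 0 reads in all cKO libraries, against 17, 0 and 1 reads in WT. The slow light chain Myl2 had at most 6 reads in any library. Other slow-fibre genes had reads in every library. Myoz2, next after Tpm3 and Atp2a2 per length, stood at 5.53, 6.25 and 4.23 CPM in cKO, against 4.38, 5.66 and 7.11 CPM in WT. Tnnc1, Tnnt1 and Tnni1 had from 1 to 59 reads per library, and WT 2 was not the highest library for any of them or for Myoz2.

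For sarcomere genes shared by fibre types WT 2 had the highest sum. Of 22 listed, 14 were tested, 12 lay below 0 and 2 above, 0 passed, and the median was -0.66. Without WT 2, 9 lay above 0 and 5 below, against 50.1% of all genes above 0, and the median was 0.24. As for the members, the library left out is the one with the highest sum, so this split is a description only. WT 2 was highest for 18 of 22, and the sum was 234, 266 and 276 CPM in cKO, against 206, 418 and 237 CPM in WT. Tpm2, a tropomyosin, stood at 25.3, 25.9 and 19.0 CPM in cKO, against 23.7, 58.9 and 23.6 CPM in WT. Tcap, the titin cap, stood at 50.7, 71.0 and 81.4 CPM in cKO, against 33.9, 94.3 and 48.1 CPM in WT. The small heat shock protein gene Cryab, also expressed outside muscle, stood at 125, 133 and 147 CPM in cKO, against 117, 135 and 130 CPM in WT. Tcap and Cryab were high in cKO 3, where the summed level of the 10 members was lowest.

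Genes of muscle energy metabolism were mostly highest in WT 2. Of 15 listed, 14 were tested, 12 lay below 0 and 2 above, 0 passed, and the median was -1.11. With WT 2 left out, 8 lay above 0 and 6 below, against 50.1% of all genes above 0, and the median was 0.21. WT 2 was highest for 12 of 15. Eno3, the muscle enolase, stood at 34.5, 38.2 and 15.1 CPM in cKO, against 23.2, 149.9 and 26.6 CPM in WT. Pgam2, the muscle phosphoglycerate mutase, stood at 8.41, 5.23 and 0.377 CPM in cKO, against 3.63, 55.1 and 1.48 CPM in WT. Cox7a1, a cytochrome oxidase subunit of heart and muscle, stood at 3.32, 3.79 and 2.55 CPM in cKO, against 4.09, 11.6 and 4.33 CPM in WT. Of the 15 genes of excitation-contraction coupling, 11 were tested, 8 lay below 0 and 3 above, and 0 passed, with a median of -0.53. Without WT 2, 12 were tested and 0 passed. Of these, 8 lay above 0 and 4 below, against 50.1% of all genes above 0, with a median of 0.61. Asph, the most abundant of that list per length, stood at 113, 103 and 82.5 CPM in cKO, against 116, 104 and 112 CPM in WT and is widely expressed. WT 2 was highest for 8 of its 15 genes.

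**Figure D4:**
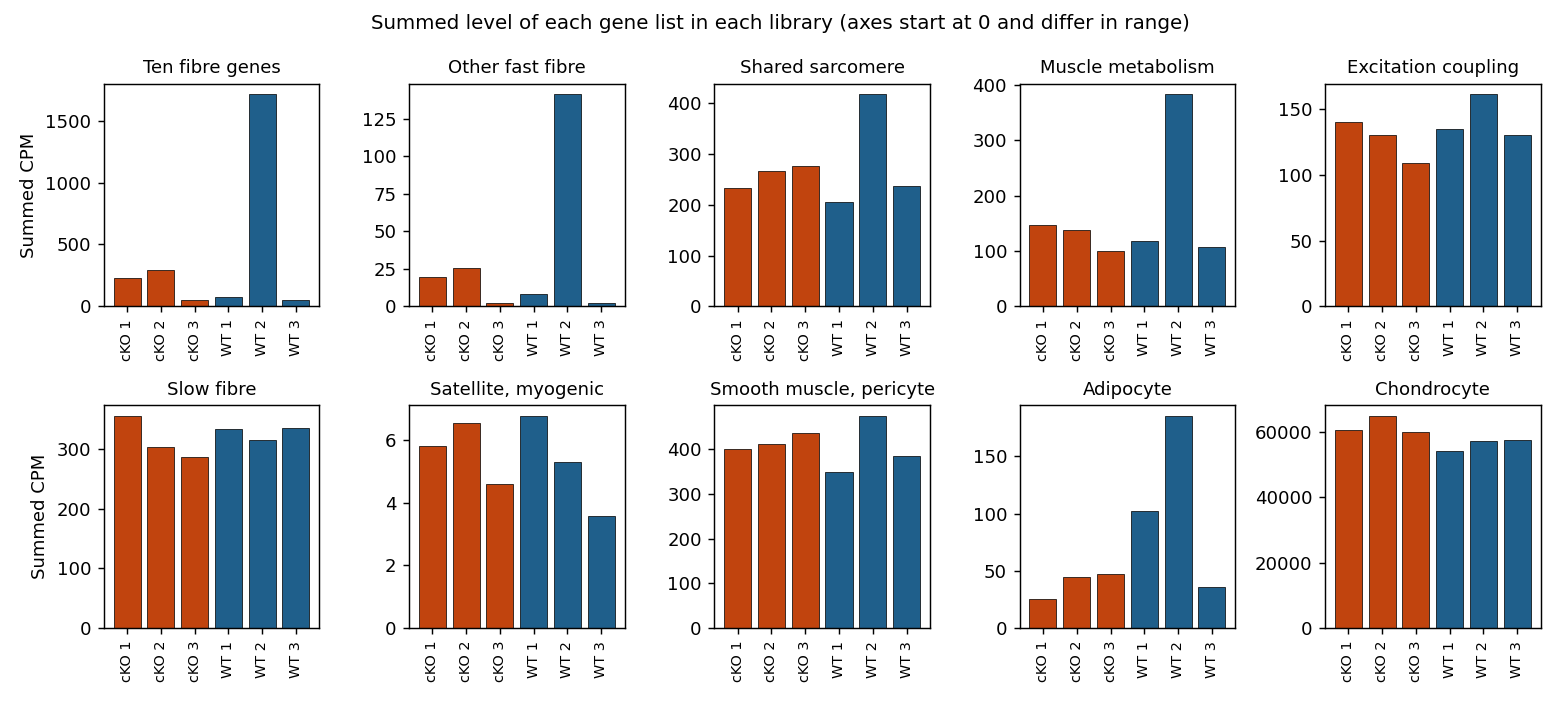
Summed CPM of 10 gene lists in the 3 cKO libraries (red-orange bars) and the 3 WT libraries (blue bars), 1 bar per library, each panel with its own axis from 0. WT 2 stands at 1715 CPM for the 10 fibre genes and 141 CPM for the other fast-fibre genes, while slow-fibre sums lie between 286 and 355 CPM in all 6 libraries.

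Most genes of the satellite cell and myogenic list had few or no reads. Pax7, the defining satellite cell factor, had 0 reads in all 6 libraries. Myf5 had 1 read in cKO 2 and 0 elsewhere, and Myod1 had 5 reads in cKO 2, 3 in WT 3 and 0 elsewhere. Myog, a myogenic gene of the same list, had 11 reads in WT 1 and 0 elsewhere. The 12 listed genes summed to 5.80, 6.55 and 4.604 CPM in cKO, against 6.76, 5.31 and 3.57 CPM in WT. Most of that was Cdh15, a cadherin of muscle precursors, at 5.22, 5.60 and 4.02 CPM in cKO, against 5.55, 3.64 and 2.17 CPM in WT. Heart muscle genes summed to 15.01 to 16.5 CPM in cKO and 8.43 to 19.7 CPM in WT, with Myl7, Nppb and Nkx2-5 at 0 reads in every library. Of that list Actc1, an actin of the heart that skeletal muscle also makes, had 0, 20 and 0 reads in cKO, against 2, 99 and 0 in WT.

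Markers of other tissues near the joint were in part highest in WT 2. Smooth muscle and pericyte genes summed to 400 to 437 CPM in cKO and 350 to 475 CPM in WT. Of these genes 7 of 11 were highest in WT 2. Most of the sum came from Smtn, Rgs5 and Cspg4, the most abundant of the list per length. Rgs5 was highest in WT 2 (118 CPM), while Smtn and Cspg4 were highest in cKO 2 (109 and 197 CPM). The log2 fold changes of Smtn, Rgs5 and Cspg4 were 0.14, 0.07 and 0.24. The other 5 of 8 tested lay below 0, and 0 passed. Among those 5, the smooth muscle actin Acta2 stood at 1.02, 10.6 and 7.20 CPM in cKO, against 7.12, 46.8 and 6.004 CPM in WT. Adipocyte genes summed to 25.7 to 47.3 CPM in cKO and 36.1 to 185 CPM in WT, with 7 of 8 highest in WT 2. The adipokine gene Lep had 0 reads throughout. All 7 tested lay below 0 on the log2 scale, 0 passed, and the median was -1.27. Without WT 2, 6 of the 7 stayed below 0 and 1 lay above, 0 passed, and the median was -0.59. At an unadjusted edgeR p under 0.05, 2 of the 7 (Fabp4 and Cfd) were lower in cKO, against 2.96% of all genes. Without WT 2 it was 0 of 7, against 2.54%. Cfd, which fat cells secrete as adipsin, stood at 8.81, 14.9 and 6.19 CPM in cKO, against 47.1, 104 and 7.30 CPM in WT, so WT 1 was also high. Endothelial genes summed to 28.8 to 55.8 CPM in cKO and 35.0 to 56.5 CPM in WT, with 2 of 7 highest in WT 2. Tendon and ligament genes summed to 14700 to 20531 CPM in cKO and 16020 to 20849 CPM in WT. Of these genes 2 of 9 were highest in WT 2, and 0 passed. Most of the sum came from the collagen genes Col1a1 (5201 to 9836 CPM over all libraries) and Col1a2 (4349 to 7485 CPM). Of the defining tendon genes, Tnmd had 0, 7 and 0 reads in cKO, against 0, 50 and 17 in WT. Scx, a transcription factor of tendon, had 104, 245 and 136 reads in cKO, against 175, 124 and 168 in WT. Mkx, another tendon transcription factor, had 421, 543 and 690 reads in cKO, against 411, 450 and 474 in WT. WT 2 was highest for Tnmd and not for Scx or Mkx. Erythroid sums ran from 2889 to 4405 CPM in cKO and from 2759 to 3097 CPM in WT, and osteoblast sums from 29202 to 32771 CPM in cKO and from 26009 to 29034 CPM in WT. The part of these tissues in the levels of the 10 genes was not tested.

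Across all tested genes, large excesses in WT 2 were few. WT 2 was the highest library for 17.7% of 16260 genes, against 15.1% to 17.6% for each other library. It reached at least 3 times the next highest library for 58 genes, or 0.357%, where the other libraries did so for 3 to 19 genes each. Of the 10 members 9 were among the 58, all but Tnni2. A further 22 of the 58 belonged to the other 5 skeletal muscle lists, which hold 72 genes with 53 tested. The smooth muscle list held 2, Acta2 and Myh11, and 25 were in no list.

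Among genes of no list, the pattern most like the mean log2 CPM of the members over the 6 libraries was that of Mylf-ps (Pearson r = 0.99), at 2.26, 2.70 and 0.586 CPM in cKO, against 0.569, 18.8 and 0.380 CPM in WT. Since 65.0% of its 50-base words also occur in Myl1, the reads of the pair are uncertain between them. Nectin3, Sptan1, Rsl1d1, Stag2, Tfg, Pex26 and Nbdy came next, with r from 0.96 to 0.99, but their WT 2 level was just 1.07 to 1.31 times the next highest library. With 6 libraries and 16260 genes such likeness of order is a description of these libraries. Outside the members, Myoz1 of the fast-fibre list had the highest r of the listed genes, 0.98.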

How the data were processed

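Read counts per Ensembl gene, whole and not normalized, were deposited by the authors for 55401 genes. Per the submitters' processing notes the build was GRCm38, with featureCounts 2.0.1, HISAT2 2.2.1, FastQC 0.11.9, DESeq2 1.30.1 and R 4.0.5 among the tools; no source used here gives the annotation release, strand setting or multi-mapping treatment. A deposited normalized signal for 23239 genes equals those counts divided by 1 size factor per library: 100% of its values above 0 were whole reads within 0.001, and 0 differed from the counts. Reads recovered from it, in edgeR, called 1 gene, an alternative chosen after seeing the data. Symbols, coordinates and exon lengths came from GENCODE M21 (GRCm38) for 55141 identifiers, matched without the version suffix where needed, as for Ttn.

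Library totals were 22664828 to 31014996 reads; replicates differed by a chi-square of 31.4 to 36.5 per degree of freedom, so no library was a duplicate. Counts were filtered with filterByExpr (16260 genes), TMM-normalised and fitted in edgeR 4.0.16 (R 4.3.3; glmQLFit, glmQLFTest, group as the 1 term, 4 residual degrees of freedom), Benjamini-Hochberg adjusted over all genes at 0.05. SE is the log2 fold change divided by the square root of F. With 3 libraries a group, exact permutation p-values have a floor of 0.1, and none is given. The script was tested on simulated data. Alternatives were RLE factors, library sizes alone, no filter, DESeq2 1.42.0, limma-voom (limma 3.58.1), the replicate number as a block and leaving out each library. Same-numbered libraries are not stated to be paired. The members, the other 14 lists and the naming rule were chosen with earlier results of these data known. Named were all members and, where used, the 3 most abundant genes per length of each list. Up to 8 genes of no list with a mean of at least 2 CPM were also named, by likeness. Myh1, Tnnc2, Myh7, Myl2, Tnnc1, Tnnt1, Tnni1, Acta2, Myh11, Tnmd, Scx, Mkx and Lep were named after their values were seen. So were Clcn1, Myog, Pax7, Myf5, Myod1, Myl7, Nppb and Nkx2-5.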

Additional observations from a re-analysis of the deposited data

How the results depend on the processing

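No alternative put a member past the threshold: 0 of 10 were called under each, with adjusted p-values from 0.512 to 0.9999 over 120 refits of single members, 4 of which (DESeq2) gave none. The direction held in 103 of the 120 and reversed in 17. With single libraries left out, the median of the members ran from -2.32 (without cKO 2) to 1.59 (without WT 2). The log2 fold changes ran from -2.56 to 1.96 for Acta1, -1.48 to 0.27 for Mylpf, -2.80 to 2.04 for Myl1, -2.34 to 2.99 for Ckm, -1.68 to 0.35 for Ttn, -2.58 to 4.81 for Myh4, -2.33 to 1.23 for Tnnt3, -0.39 to 0.88 for Tnni2 and -2.07 to 2.09 for Atp2a1. The upper ends are all without WT 2; Tnni2 also turned without cKO 3, at 0.11. Casq1 stayed below 0, from -2.91 to -0.57. With limma-voom the median was -0.33, and Ckm (0.41), Myh4 (2.01), Tnni2 (0.29) and Atp2a1 (0.50) turned upward. With the replicate block the median was -0.63, and Myh4 (1.11), Tnni2 (0.20) and Atp2a1 (0.31) turned; the cause was not tested. Deviations of same-numbered libraries correlated at -0.02, 0.07 and 0.02, so little variation was shared by number. These values cannot show whether the libraries were paired by design. The block called 1 gene.

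Over all genes, edgeR called 1 (Scin), 3 with no filter (Scin, Mcm6 and Trim10), and 1 to 2 with single libraries left out, the second being Gm7292 without WT 3; DESeq2 called 91. The summed level per library moved by less than the spread within its group under RLE factors, library sizes alone and DESeq2 size factors. Myh4, Atp2a1 and Casq1 had as few as 7, 26 and 30 reads in a library.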

Other observations

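Among the 25 genes of no list whose level in WT 2 was at least 3 times that in the next highest library, several are known from muscle; they were chosen after their values were seen. Klhl31, a kelch-family gene of muscle, stood at 8.28, 6.42 and 0.209 CPM in cKO, against 1.53, 36.5 and 0.570 CPM in WT, with cKO 3 and WT 3 lowest. Asb2, a ubiquitin ligase adaptor, stood at 0.531, 0.691 and 0.795 CPM in cKO, against 0.071, 4.78 and 0.076 CPM in WT. Hfe2, which encodes hemojuvelin, stood at 0.930, 0.658 and 0 CPM in cKO, against 0.320, 5.00 and 0.228 CPM in WT. Genes known from other tissues were also among the 25. Gja5, a connexin of arteries and the heart, stood at 0.885, 0.757 and 0.586 CPM in cKO, against 0.107, 8.42 and 0 CPM in WT, and Ahsg, a plasma protein gene of liver, at 0.044, 0.395 and 1.09 CPM in cKO, against 0.676, 6.67 and 1.06 CPM in WT.

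Clcn1, the chloride channel of the muscle membrane, had a log2 fold change above 0, opposite to the members with all 6 libraries in, but the same way as 9 of 10 members without WT 2. It had 25, 20 and 10 reads in cKO, against 0, 3 and 4 reads in WT, with WT 2 among the low libraries. Its log2 fold change was 2.90, with an unadjusted p of 0.0196 and an edgeR adjusted p of 0.700, so it did not pass. The other 5 skeletal muscle lists hold 53 tested genes. At an unadjusted edgeR p under 0.05, 1 of them (Clcn1) was higher in cKO, against 3.54% of all genes. Likewise 1 (Cox7a1) was lower, against 2.96%.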
